A study of Homo sapiens with 13 samples.

Results

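The genes described here encode the proteasome: its core and regulatory subunits, its activators and the chaperones that help assemble it. They were taken by name, as every probe whose symbol is PSMA, PSMB, PSMC, PSMD, PSME, PSMF or PSMG followed by a number. The family was chosen with earlier results of these data known, and within it no measured value decided which probe was taken. The rule found 51 probes of 37 genes, of 12007 probes and 8380 genes in the table of normalized values. Of the 48 genes on the full list, PSMA7, PSMA8, PSMB8, PSMB9, PSMB11, PSMC5, PSMD5, PSMD7, PSMD13, PSMF1 and PSMG4 were not analysed here.

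The values are from 13 libraries of mRNA captured with a microRNA. HEK293T cells, an established line of human embryonic kidney cells, were transfected with 200 pmol of a miRNA duplex that carried biotin at the 3′ end of its guide strand, and were harvested after 24 h. RNA held by the biotinylated strand was recovered on streptavidin beads and hybridized to Illumina HT-12 arrays. The pull-downs were made with miR-182-iso (2 libraries), miR-27a (3 libraries), miR-23b (2 libraries), miR-17-5p (3 libraries) and its variant miR-17-5p-iso (3 libraries), where iso marks an isomiR, a form of the miRNA that starts at another base and so has another seed. All libraries came from HEK293T cells that had received 1 such duplex, and mock-transfected cells were not analysed here.

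The proteasome is the protease that degrades most ubiquitin-tagged proteins of the cytosol and nucleus. Its core is a barrel of stacked rings, in which alpha subunits form the gates at both ends and beta subunits form the chamber and carry the active sites. A regulatory cap of ATPase subunits (PSMC genes) and non-ATPase subunits (PSMD genes) recognizes ubiquitinated proteins, unfolds them and feeds them into the core. PSME genes encode other activators that bind the end of the barrel, and PSMG genes encode chaperones that assemble it. The subunits are present in defined numbers in the particle, and dividing cells transcribe most of these genes at high levels.

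The guide strands are shown because the pull-downs differed by design in the duplex, that is, in its guide strand and the strand paired to it. Each is written 5′ to 3′, with the seed, bases 2 to 8, in capitals, and was taken from the list of duplexes that came with the study.
miR-182-iso: uGGCAAUGguagaacucacacu
miR-27a: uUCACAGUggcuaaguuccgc
miR-23b: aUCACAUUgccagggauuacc
miR-17-5p: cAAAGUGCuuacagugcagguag
miR-17-5p-iso: uCAAAGUGcuuacagugcaggua
The 5 seeds are all different, but those of miR-27a (UCACAGU) and miR-23b (UCACAUU) differ at only 1 base. The seed of miR-17-5p-iso is that of miR-17-5p moved by 1 base, since the isomiR starts 1 base earlier, and miR-182-iso starts 2 bases later than the RefSeq mature miR-182-5p. In the RefSeq annotation of GRCh38.p14 the mature miRNAs lie at chr7:129770447-129770470 (MIR182, minus strand), chr19:13836447-13836467 (MIR27A, minus strand), chr9:95085265-95085287 (MIR23B, plus strand) and chr13:91350618-91350640 (MIR17, plus strand).

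Values are normalized levels. Their scale is near log2 at high signal and is squeezed together at low signal, where a difference comes out smaller than it was. Library medians lay between 8.53 and 8.60 and values between 7.42 and 15.5. Within a pull-down, libraries correlated at r = 0.941 to 0.984 over all probes, and between pull-downs at 0.797 to 0.973, with the lowest between miR-182-iso and miR-27a. Of the kidney line's markers, VIM was at 9.73 to 13.1, while KRT18, KRT8 and NEFL stayed at 7.44 to 8.22, near the lowest values of the table, and NEFM reached 9.01. COL1A1, the 1 marker of 8 for other cell types that the table held, was at 7.48 to 7.59. The proteasome probes were bright: the median of their means was 10.47, against 8.59 over all probes, and 41 of 51 were at or above that median. Their means ran from 7.75 to 12.46, and 5 probes with a mean under 8 (all 3 of PSMC4, 1 of PSMC6 and 1 of PSMD10) were close to the lower end of the scale. The number of arrays, 2 or 3 a pull-down, limits the precision of every value. The study used more than 1 version of the array, and its part in the results was not tested.

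Each duplex was set against the average of the unrelated duplexes, to ask which mRNAs a miRNA captured more or less than other miRNAs did. For this, miR-17-5p and its isomiR counted as 1 family, and miR-27a and miR-23b, despite their similar seeds, as unrelated. The comparisons share libraries, so a probe that is high with 1 duplex tends to be lower with the others by construction. A probe was called at an adjusted p under 0.05 (limma, Benjamini-Hochberg over all 12007 probes). Over all probes, miR-182-iso had 17.0% called higher and 15.4% called lower, miR-27a 15.2% and 15.1%, miR-23b 5.91% and 3.00%, miR-17-5p 5.34% and 4.51%, and miR-17-5p-iso 5.11% and 2.74%. Without a measure of the input RNA, more capture and more of an mRNA in the cells cannot be told apart.

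**Figure D1:**
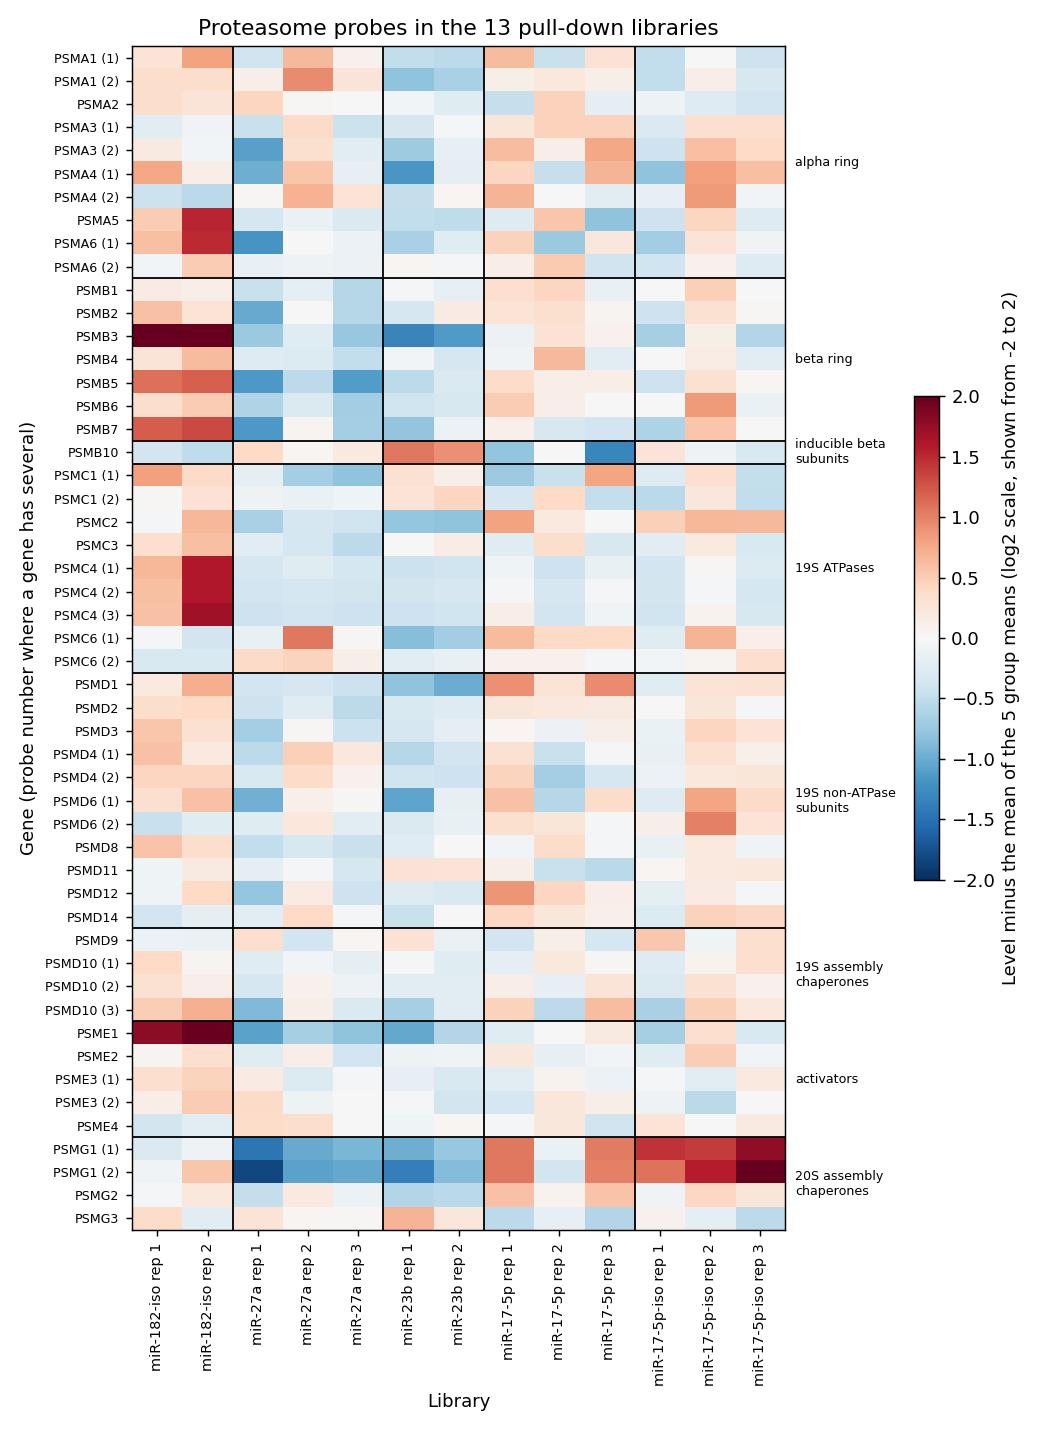
Level of each proteasome probe (rows, by the part of the particle) in each of the 13 libraries (columns), as its difference from the mean of the 5 group means on the log2 scale, with colours ending at -2 and 2. Most rows are red in the 2 miR-182-iso libraries, many are blue with miR-27a and miR-23b, and both PSMG1 probes are red in all 3 miR-17-5p-iso libraries.

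A difference between any of the 5 pull-downs was found for 19 of 51 proteasome probes, of 16 genes (limma F test, adjusted p under 0.05). That is 37.3% of them, against 42.2% of all probes, a share below that of the table as a whole. The 3 smallest adjusted p were those of PSMB3 (0.000247), PSME1 (0.000612) and the PSMG1 probe ILMN_1659285 (0.000853). The direction of the calls was uneven between the duplexes.

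With miR-182-iso, proteasome mRNAs were called higher in both rings of the core, among both kinds of cap subunit and among the activators, and not among the assembly chaperones. Of 51 probes, 16 (of 14 genes) were called higher, 31.4% against the 17.0% of all probes, and 1 was called lower, 1.96% against 15.4%. The median difference of the proteasome probes was 0.53 (0.35 with 1 probe per gene), against -0.00 over all probes, and 41 of 51 were above 0. In the beta ring all 7 probes had differences above 0 and 4 were called, in the alpha ring 2 of 10 were called, among the ATPases 4 of 9, among the non-ATPase subunits 4 of 11 and among the activators 2 of 5. Among probes at or above the median level, 29.3% of the 41 proteasome probes were called higher, against 17.7% of the 6004 probes of the table.

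PSMB3, a beta subunit without catalytic activity, was the farthest apart. It read 14.43 and 14.46 in the miR-182-iso libraries, against 11.04 to 12.65 with a median of 11.76 in the 11 libraries of unrelated duplexes. No library of another duplex came near it, and the difference was 2.74 ± 0.20 (SE, adjusted p = 3.2e-05), 6.69-fold on this scale. PSME1 encodes the alpha subunit of an activator that interferon-gamma induces in many cells. It read 10.93 and 11.11 with miR-182-iso, against 8.07 to 9.47 with a median of 8.56, a difference of 2.47 ± 0.23 (adjusted p = 0.000109). Its partner in that activator, PSME2, read 8.81 and 9.09, against 8.38 to 9.26 elsewhere, and its difference of 0.26 ± 0.19 was not called (adjusted p = 0.322).

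All 3 catalytic subunits of the constitutive core were measured. PSMB5, the chymotrypsin-like subunit that proteasome inhibitors used in myeloma block, read 11.90 and 12.00, against 9.65 to 11.17 with a median of 10.51, a difference of 1.56 ± 0.19 (adjusted p = 0.0005). PSMB7, the trypsin-like subunit, read 12.34 and 12.44, against 9.97 to 11.67 with a median of 10.80, a difference of 1.65 ± 0.33 (adjusted p = 0.00491). Both lay above every library of unrelated duplexes. Without the second miR-182-iso library the PSMB7 difference was 1.60 and missed the threshold, and fewer proteasome probes were called higher. The share of all probes called in that fit was not taken. PSMB6, the caspase-like subunit, had a difference of 0.65 that was not called.

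PSMC4, an ATPase of the cap, was measured by 3 probes near the lower end of the scale. In the order of the 2 libraries, ILMN_2395389 read 8.45 and 9.55 with miR-182-iso, against 7.44 to 7.99 with a median of 7.47, and ILMN_1687887 read 8.54 and 9.48, against 7.45 to 7.90 with a median of 7.54. The differences were 1.47 ± 0.24 and 1.45 ± 0.20 (adjusted p = 0.00165 and 0.000779), and the third probe gave 1.41. The 2 miR-182-iso libraries were about 1 unit apart on each probe. In the libraries of the other duplexes PSMC4 was close to the dimmest probes of the table.

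**Figure D2:**
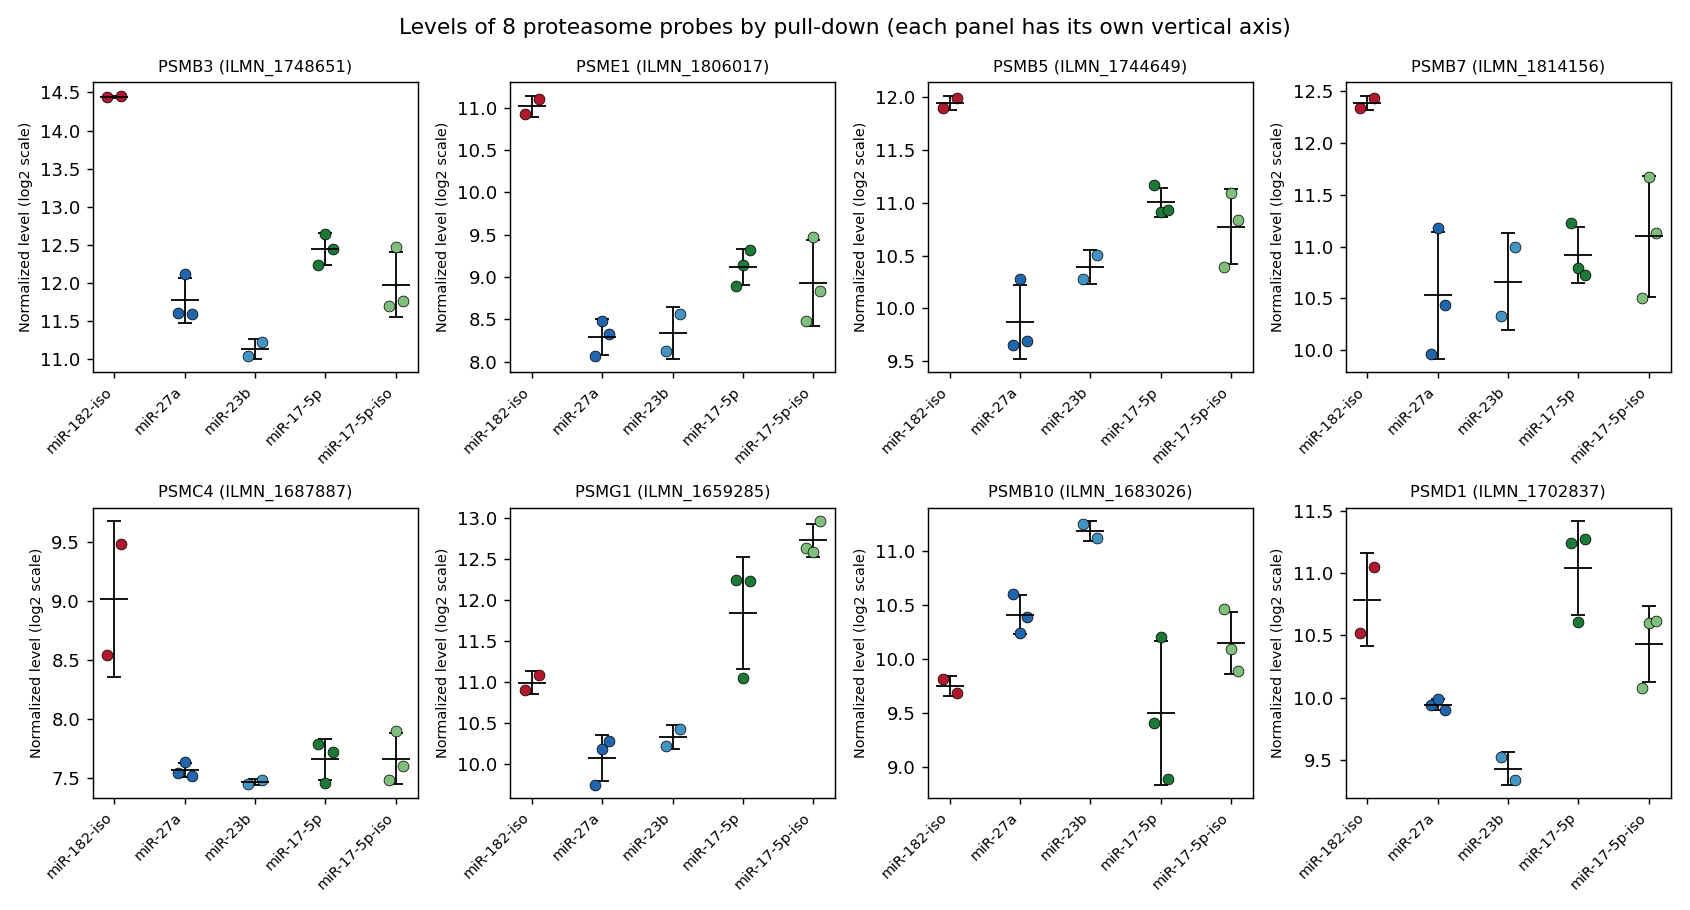
Normalized level (log2 scale, one axis a panel) of 8 proteasome probes in each library, grouped by duplex. Points are libraries, the long bar is the group mean and the short bars are 1 SD. The miR-182-iso points stand above all others for PSMB3, PSME1, PSMB5, PSMB7 and PSMC4, miR-17-5p-iso for PSMG1 and miR-23b for PSMB10.

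The other probes called higher with miR-182-iso had smaller differences. They were the alpha subunits PSMA6 (1.37, 1 of 2 probes) and PSMA5 (1.31), the beta subunit PSMB4 (0.61), the ATPase PSMC3 (0.59), the scaffold subunits PSMD1 (0.75) and PSMD2 (0.55) of the cap, its subunits PSMD8 (0.63) and PSMD3 (0.61), and the nuclear activator PSME3 (0.50, 1 of 2 probes). The 1 probe called lower belonged to the ATPase PSMC6 (ILMN_2096759, -0.38), at 7.50 and 7.51 with miR-182-iso, at the lower end of the scale. PSMB10, an inducible beta subunit of the immunoproteasome, differed by -0.72 and was not called (adjusted p = 0.0623).

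With miR-27a the called differences ran mostly the other way. Of 51 probes, 12 (of 11 genes) were called lower, 23.5% against the 15.1% of all probes, and 2 were called higher, 3.92% against 15.2%. The median difference was -0.30, against -0.03 over all probes, and 15 of 51 probes were above 0. In the beta ring 5 of 7 probes were called lower, and in the alpha ring 1 of 10 was called, and higher. Among probes at or above the median level, 26.8% of the 41 proteasome probes were called lower, against 19.7% of the 6004 probes of the table. The count of probes called lower was 6 without the first miR-27a library and 7 without the third, and it also fell without the second miR-23b library. The share of all probes called in those fits was not taken.

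PSMG1, a chaperone that starts the assembly of the alpha ring together with PSMG2, had the lowest level with miR-27a. Its probe ILMN_1779264 read 8.61, 9.35 and 9.40, against 9.06 to 12.60 with a median of 11.21 in the 10 libraries of unrelated duplexes, a difference of -1.38 ± 0.35 (adjusted p = 0.016). Its probe ILMN_1659285 read 9.74, 10.18 and 10.28, against 10.22 to 12.96 with a median of 11.65, a difference of -1.13 ± 0.24 (adjusted p = 0.00771). On both probes the libraries overlapped only with those of miR-23b. Without the first miR-27a library the ILMN_1779264 difference was -1.12 (adjusted p = 0.0789).

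PSMB5 read 9.65, 10.28 and 9.69 with miR-27a, against 10.28 to 12.00 with a median of 10.92, with the second library just under the lowest of the others, and the difference was -1.20 ± 0.17 (adjusted p = 0.00138). PSME1 read 8.07, 8.48 and 8.33, against 8.12 to 11.11 with a median of 9.02, a difference of -1.17 ± 0.20 (adjusted p = 0.00291). PSMB3 read 11.60, 12.11 and 11.59, against 11.04 to 14.46 with a median of 12.34, a difference of -0.82 ± 0.18 (adjusted p = 0.00808). PSMB2, another beta subunit without catalytic activity, read 10.26, 11.27 and 10.69, against 10.85 to 11.84 with a median of 11.48. For all of PSMB5, PSME1, PSMB3 and PSMB2 the top of the unrelated range was set by miR-182-iso. The PSMB2 difference of -0.67 ± 0.22 had an adjusted p of 0.043 and missed the threshold without any 1 library other than the second of miR-27a, the first of miR-23b and the first of miR-17-5p-iso, with -0.42 (adjusted p = 0.202) without the first of miR-27a.

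The remaining probes called lower with miR-27a were PSMB6 (-0.63), PSMC4 (1 of 3 probes, -0.55), PSMD8 (-0.55), PSMC3 (-0.52), PSMB1 (-0.48) and PSMD2 (-0.47). That PSMC4 probe (ILMN_2287888) read 7.43, 7.47 and 7.45 with miR-27a, at the lower end of the scale. Without the miR-182-iso libraries its difference was -0.09 (limma, adjusted p = 0.609). Called higher were the alpha subunit PSMA1 (ILMN_1709611, 0.58) and PSMC6 (ILMN_2096759, 0.45).

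The miR-182-iso libraries are among the unrelated ones for every other duplex, and the miR-27a differences were also computed without them. Then 4 proteasome probes were called lower (both of PSMG1, PSMB5 and PSMD2), where 6.51% of all probes were, and 1 was called higher (PSMA1), where 7.04% of all probes were. The median difference was -0.12, against -0.02 over all probes. PSMG1 stayed at -1.29 and -1.23 (adjusted p = 0.0496 and 0.0187) and PSMB5 at -0.77 (adjusted p = 0.0285). PSME1 came to -0.39 (adjusted p = 0.258), and PSMB3 changed sign, to 0.10 (adjusted p = 0.785).

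**Figure D3:**
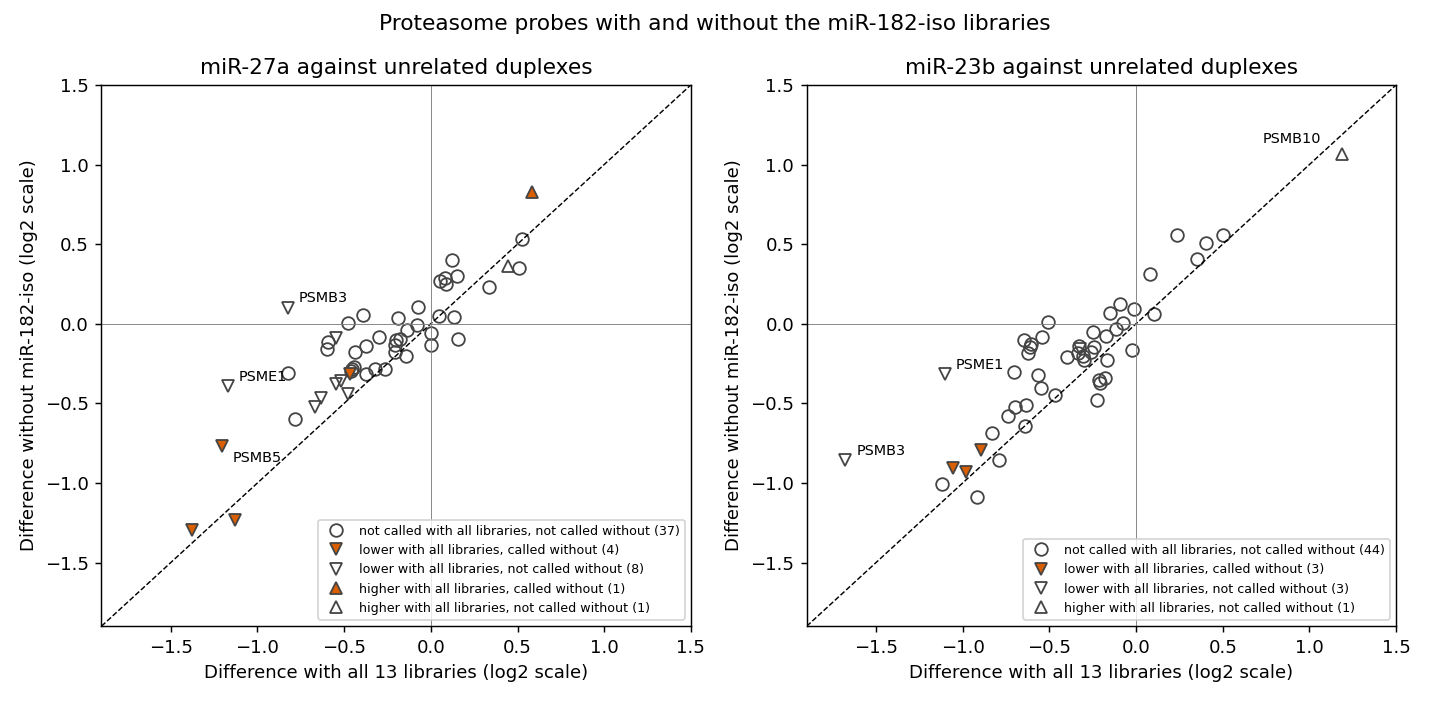
Difference of each proteasome probe from unrelated duplexes with all 13 libraries (horizontal axis) and without both miR-182-iso libraries (vertical axis), on the log2 scale, for miR-27a (left) and miR-23b (right). Triangles were called with all libraries and filled symbols also without miR-182-iso, and the dashed line marks equal values. PSMB3 and PSME1 lie far from the line in both panels.

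Set directly against miR-27a, miR-182-iso had 21 proteasome probes (of 18 genes) called higher, 41.2% against 19.9% of all probes, and 2 called lower, 3.92% against 18.2%. The pair was chosen with earlier results of these data known, as the pull-down that stood apart and the other one with most calls. It uses the libraries of the comparisons above and is not a separate test of them. The median difference was 0.50, against 0.02 over all probes, and 41 of 51 probes were above 0. PSME1 differed by 2.73 ± 0.26 (adjusted p = 0.000149) and PSMB3 by 2.67 ± 0.24 (adjusted p = 9.85e-05), with the library values given above and no overlap. All 7 probes of the beta ring had differences above 0, and 6 of them were called, all but PSMB1. Among the ATPases 6 of 9 probes were called higher, among the non-ATPase subunits 4 of 11, among the alpha subunits 2 of 10, and both PSMG1 probes were too (1.55 and 0.92). Called lower were PSMC6 (ILMN_2096759, -0.62) and PSME4 (-0.53), which encodes the large activator of the nuclear proteasome. Without the second miR-182-iso library fewer than these 21 probes were called higher, and the share of all probes called in that fit was not taken.

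**Figure D4:**
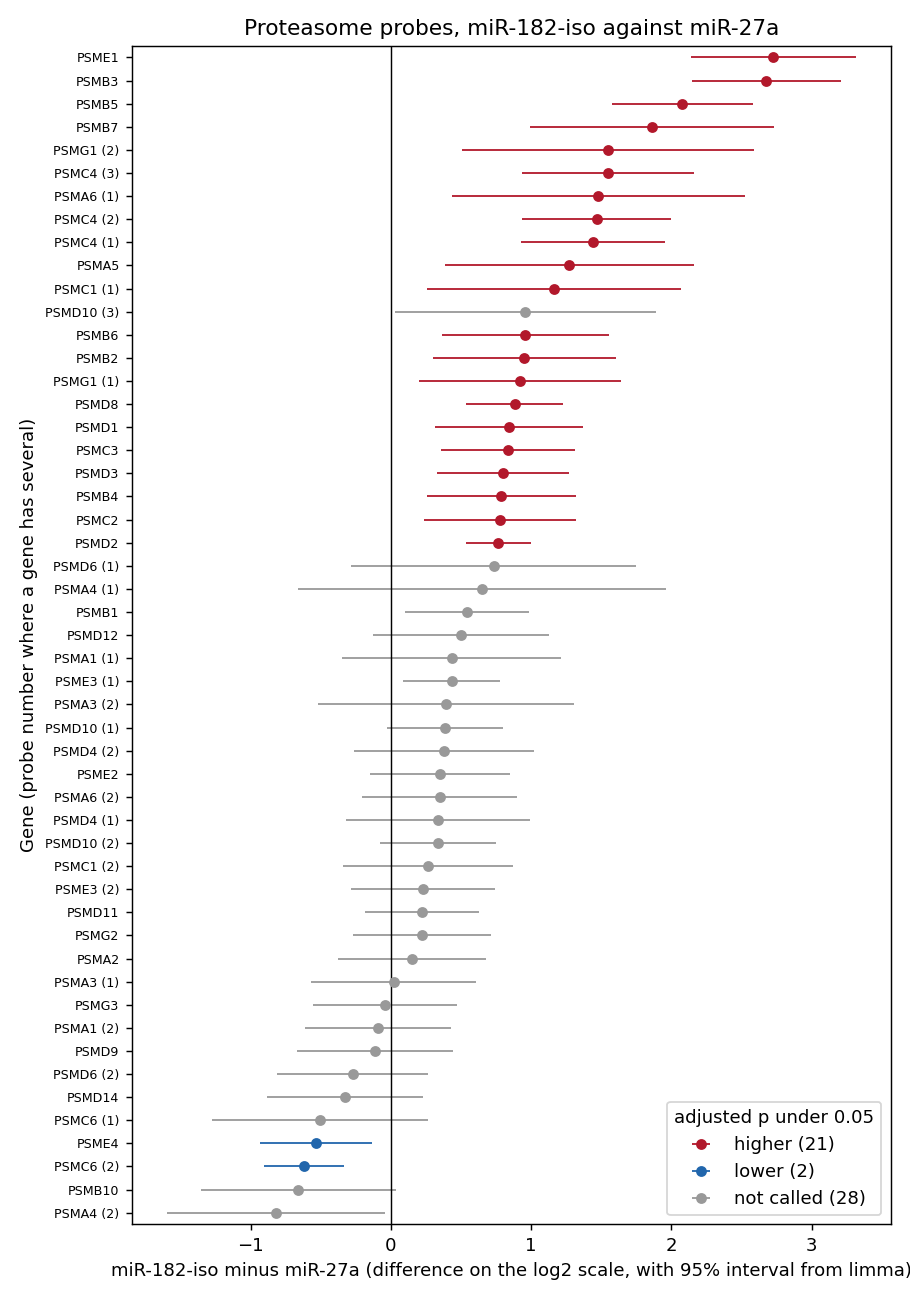
Difference of each proteasome probe between miR-182-iso and miR-27a (miR-182-iso minus miR-27a, log2 scale), with 95% intervals from limma, ordered by size. PSME1 and PSMB3 lie at 2.73 and 2.67, 21 probes were called higher (red) and 2 lower (blue).

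With miR-23b, 6 proteasome probes were called lower, 11.8% against the 3.00% of all probes, and 1 was called higher, 1.96% against 5.91%. The median difference was -0.33, against -0.02 over all probes, and 7 of 51 probes were above 0. Among probes at or above the median level, 14.6% of the 41 proteasome probes were called lower, against 3.98% of the 6004 probes of the table. The single probe of PSMB10, the inducible counterpart of PSMB7, was the one called higher. It read 11.25 and 11.12 with miR-23b, against 8.89 to 10.60 with a median of 10.10 in the 11 libraries of unrelated duplexes, a difference of 1.19 ± 0.27 (adjusted p = 0.0265). Both miR-23b libraries were above all others on this probe.

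PSMB3 read 11.04 and 11.22 with miR-23b, against 11.59 to 14.46 with a median of 12.23, a difference of -1.68 ± 0.20 (adjusted p = 0.00298). PSME1 read 8.12 and 8.56, against 8.07 to 11.11 with a median of 8.89, a difference of -1.10 ± 0.23 (adjusted p = 0.0199). The miR-23b and miR-27a libraries overlapped on PSME1, and on PSMB3 miR-23b was below every other library. PSMD1, a scaffold subunit of the cap's base, read 9.52 and 9.34, against 9.90 to 11.27 with a median of 10.60, a difference of -1.06 ± 0.20 (adjusted p = 0.0152). The alpha subunit PSMA1 (ILMN_1709611) read 10.78 and 10.94, against 11.09 to 12.54 with a median of 11.72, a difference of -0.98 ± 0.20 (adjusted p = 0.0197). The ATPase PSMC2 read 10.11 and 10.07, against 10.22 to 11.68 with a median of 11.07, a difference of -0.90 ± 0.21 (adjusted p = 0.0292). All of PSMD1, PSMA1 and PSMC2 were lower in both miR-23b libraries than in any other library, and PSMD2 was also called (-0.33).

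The miR-23b calls rest on 2 libraries. Without the first, no proteasome probe was called lower or higher (limma), and without the second PSMB3 was the 1 still called lower. Without the second miR-182-iso library PSMB10 (1.17, adjusted p = 0.0576) and PSMC2 (-0.78, adjusted p = 0.0514) missed the threshold. Without 1 or the other miR-23b library the differences lay between -1.77 and -1.58 for PSMB3, -1.15 and -0.97 for PSMD1, -1.06 and -0.90 for PSMA1, -0.92 and -0.88 for PSMC2, -1.32 and -0.89 for PSME1, and 1.12 and 1.25 for PSMB10. Without the miR-182-iso libraries, PSMD1 (-0.91), PSMA1 (-0.93) and PSMC2 (-0.79) were called lower, 3 probes where 1.42% of all probes were, and no probe was called higher, where 3.15% of all probes were. PSMB3 was then at -0.86 (adjusted p = 0.0600), PSMB10 at 1.07 (adjusted p = 0.0685), PSME1 at -0.32 (adjusted p = 0.487), and the median difference at -0.19.

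With both forms of miR-17-5p the largest proteasome difference was that of PSMG1. The probe ILMN_1779264 read 11.50, 11.99 and 12.60 with miR-17-5p-iso, against 8.61 to 10.98 with a median of 9.40 in the 7 libraries of unrelated duplexes, a difference of 2.33 ± 0.36 (adjusted p = 0.00342). The probe ILMN_1659285 read 12.64, 12.58 and 12.96, against 9.74 to 11.08 with a median of 10.28, a difference of 2.27 ± 0.25 (adjusted p = 0.00055). All 3 isomiR libraries were above every library of an unrelated duplex on both probes, and both calls held in each alternative tried.

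With miR-17-5p itself, ILMN_1659285 read 12.25, 11.05 and 12.22, a difference of 1.38 ± 0.25 (adjusted p = 0.00847), and ILMN_1779264 read 11.48, 10.06 and 11.44, a difference of 1.29 ± 0.36 (adjusted p = 0.0476). The second miR-17-5p library was inside the range of the unrelated duplexes on both probes, and the other 2 were above it. Between the 2 forms, miR-17-5p minus miR-17-5p-iso was -0.89 (95% interval -1.53 to -0.24, adjusted p = 0.205) and -1.04 (-1.97 to -0.11, adjusted p = 0.317), neither called.

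With miR-17-5p-iso 3 proteasome probes in all were called higher, 5.88% against the 5.11% of all probes, and 0 lower, against 2.74%. At an unadjusted p under 0.05 (limma) 2 were lower, and the share of all probes there was not taken. The third probe called higher was PSMC2, at 11.35, 11.54 and 11.52, against 10.07 to 11.54 with a median of 10.48, a difference of 0.91 ± 0.18 (adjusted p = 0.0149). The second miR-182-iso library lay among these values. The PSMC2 difference had an adjusted p of 0.0546 without the second isomiR library and 0.0735 without the third, at 0.87 and 0.88.

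With miR-17-5p 5 probes of 4 genes were called higher, 9.8% against the 5.34% of all probes, and 2 lower, 3.92% against 4.51%. Beside PSMG1, its partner PSMG2 read 10.06, 9.55 and 10.03, against 8.89 to 9.68 with a median of 9.35, a difference of 0.61 ± 0.17 (adjusted p = 0.0471). PSMD1 read 11.24, 10.60 and 11.27, against 9.34 to 11.05 with a median of 9.94, a difference of 0.99 ± 0.18 (adjusted p = 0.00908), and PSMD2 was called with 0.31. The probes called lower were PSMB10 and PSMG3, a chaperone that acts beside the PSMG1-PSMG2 pair. PSMB10 read 9.42, 10.20 and 8.89, against 9.69 to 11.25 with a median of 10.40, a difference of -0.95 ± 0.24 (adjusted p = 0.0331). PSMG3 read 8.01, 8.36 and 7.93, against 8.30 to 9.20 with a median of 8.76, a difference of -0.64 ± 0.18 (adjusted p = 0.0477).

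With all other pull-downs as the comparator, the isomiR included, the PSMG1 probe ILMN_1659285 had a difference of 0.81 (adjusted p = 0.0704) and ILMN_1779264 one of 0.71 (adjusted p = 0.266) with miR-17-5p, neither called, and PSMG2, PSMB10 and PSMG3 were not called either. In each of these the second miR-17-5p library lay inside the range of the unrelated duplexes. The calls of PSMG1 on ILMN_1779264, PSMG2, PSMB10 and PSMG3 were near the threshold, and each was lost when 1 of several libraries was left out, with adjusted p up to 0.206, 0.194, 0.137 and 0.198. The adjusted p of PSMD1 was 0.0536 without the third miR-17-5p library, at 0.87. Leaving out single libraries gave 1 to 7 probes called higher, the fewest without the third miR-17-5p library, and the share of all probes was not taken there. Without the miR-182-iso libraries 10 proteasome probes were called higher with miR-17-5p, where 7.85% of all probes were. PSMB3 (0.99), PSMC2 (0.96), PSMB5 (0.87), PSME1 (0.80) and PSMD12 (0.80) were then added, and the median difference was 0.33. In that fit PSMB10 (-1.30) and PSMG3 (-0.71) were called lower, where 8.59% of all probes were. With the isomiR 5 probes were then called higher, where 5.91% of all probes were, with PSMD1 (0.74) and PSMD2 (0.41) added and a median difference of 0.28. The isomiR then had 0 called lower, where 5.26% of all probes were.

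When miR-17-5p was set directly against its isomiR, 0 of 51 proteasome probes were called in either direction (limma), against 0.325% of all probes higher and 0.783% lower. At an unadjusted p under 0.05 there were 1 higher with miR-17-5p, PSMD1 (0.61), and 4 lower, both PSMG1 probes, PSMB10 (-0.65) and PSMD11 (-0.44). The share of all probes at that unadjusted threshold was not taken.

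**Figure D5:**
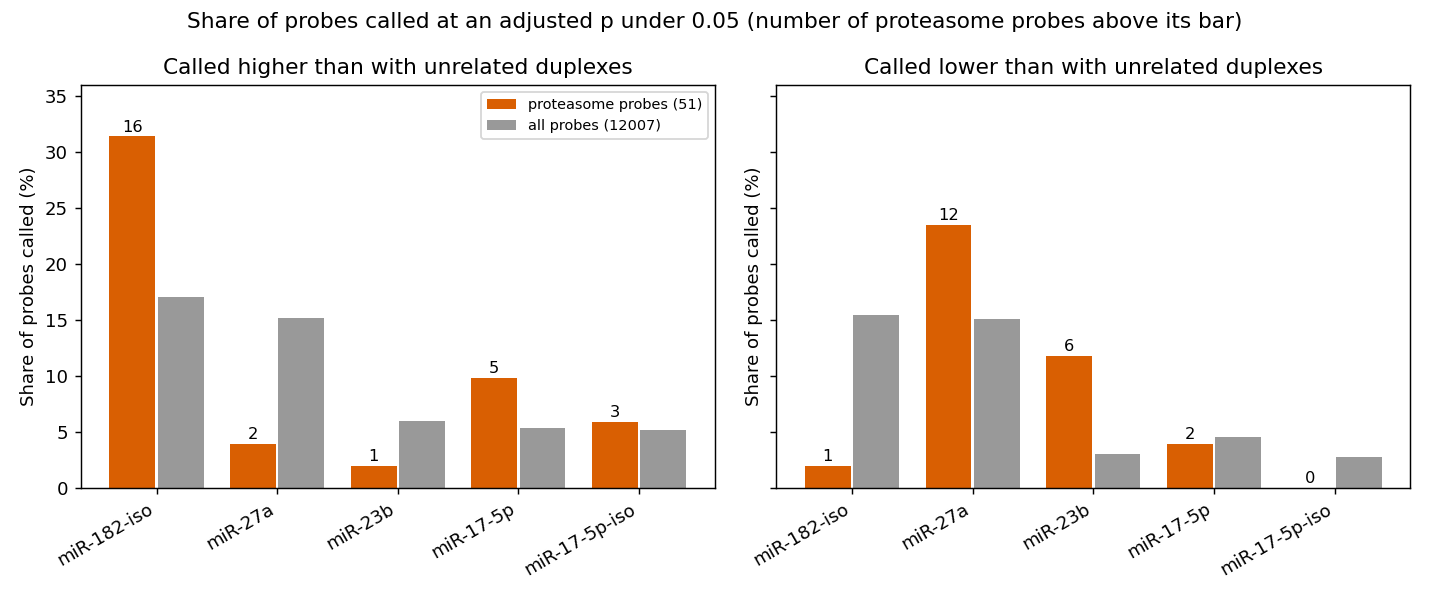
Share of the 51 proteasome probes (orange, with their number) and of all 12007 probes (grey) called higher (left) and lower (right) than with unrelated duplexes, in percent, for each pull-down. The orange bar is above the grey one for miR-182-iso called higher (31.4% against 17.0%). The same holds for miR-27a and miR-23b called lower (23.5% against 15.1% and 11.8% against 3.00%). It also holds for miR-17-5p (9.8% against 5.34%) and miR-17-5p-iso (5.88% against 5.11%) called higher. Without the miR-182-iso libraries, 4 proteasome probes were called lower with miR-27a, where 6.51% of all probes were.

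The levels of the proteasome probes varied between libraries of 1 pull-down as well. Taken as the difference from the mean of the group means, the median of the 51 probes was 0.32 and 0.35 in the miR-182-iso libraries, -0.38, 0.01 and -0.29 with miR-27a, -0.37 and -0.24 with miR-23b, 0.14, 0.11 and 0.02 with miR-17-5p and -0.25, 0.27 and 0.01 with miR-17-5p-iso. The second miR-27a library and the first and second isomiR libraries stood apart from their own groups. For the beta ring alone the medians were 0.58 and 0.63 with miR-182-iso, and -0.75, -0.24 and -0.68 with miR-27a. The libraries of miR-182-iso were above those of miR-27a in both medians.

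Of the 12 genes with several probes, PSMG1, PSMC4, PSMD4, PSMD10 and PSME3 had differences of 1 sign on all their probes with miR-182-iso, as did PSMA1 and PSMC1 and PSMA6, although for PSMA6 the values were 1.37 (called) and 0.28 (not called). PSMA4 had 0.68 and -0.59, PSMD6 0.68 and -0.36 and PSMA3 0.21 and -0.12, none of them called, and PSMC6 had -0.15 and -0.38, the second called. With miR-27a the 2 probes differed in sign for PSMA4 (-0.19 and 0.51), PSMD6 (-0.30 and 0.00) and PSME3 (-0.07 and 0.09). With miR-17-5p PSMA6 had -0.08 and 0.05, and otherwise the probes of a gene had 1 sign with miR-17-5p, with its isomiR and with miR-23b. Which transcripts each probe detects was not analysed here.

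In none of the 7 comparisons were 22 of the 51 probes called, and the share of all probes called in none was not taken. Among the 37 genes, 11 had no called probe. The brightest of these probes was PSMA4 ILMN_2198376, at 11.83 and 11.72 with miR-182-iso, 12.29, 12.96 and 12.54 with miR-27a, 11.79 and 12.30 with miR-23b, 12.94, 12.26 and 12.03 with miR-17-5p and 12.10, 13.11 and 12.21 with miR-17-5p-iso. The largest differences among the uncalled probes were -0.92 for PSMC6 (ILMN_1655316, with miR-23b) and 0.84 for PSMD10 (ILMN_2383435, with miR-182-iso). PSMD10 encodes gankyrin, a chaperone of the cap. The ubiquitin receptor PSMD4 and the deubiquitinase PSMD14, the cap subunits PSMD6, PSMD11 and PSMD12, and the chaperone PSMD9 were also uncalled throughout, and a miss of the threshold does not show that their levels were equal.

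Other genes of the pathway were taken from a list of ubiquitin enzymes, shuttle factors, cap-associated proteins and transcriptional regulators of the proteasome, of which 28 of 33 genes (39 probes) were in the table. With miR-182-iso 9 of these probes were called higher, 23.1% against the 17.0% of all probes, and 7 lower, 17.9% against 15.4%. The 3 largest were both probes of ADRM1, a ubiquitin receptor of the cap (2.08 and 1.48), and UBA1, the main ubiquitin-activating enzyme (1.65). Both ADRM1 probes were above every library of unrelated duplexes. UBA1, with a mean of 12.36, overlapped with those libraries, which reached 12.50. With miR-27a 6 were called higher, 15.4% against 15.2%, and 8 lower, 20.5% against 15.1%, and the largest were again UBA1 (-1.39) and the ADRM1 probes (-1.20 and -0.87). ADRM1 and SEM1, both stable parts of the cap, were called higher with miR-182-iso (SEM1 0.88, 1 of 2 probes) and lower with miR-27a (SEM1 -0.65, the same probe), as were NFE2L1, the transcription factor that raises proteasome genes when the protease is inhibited (0.71 and -0.67), and VCP, the segregase that delivers substrates (0.82 and -0.69). AKIRIN2 (0.69 and -0.69) and NSFL1C (0.69 and -0.54) were called in the same directions as ADRM1. UBE3A, a ubiquitin ligase, ran the other way on both probes (-0.86 and -0.85 with miR-182-iso, and 0.61 and 0.72 with miR-27a). So did UBA6 (-0.82 and 0.71), 1 of 2 FAF1 probes (-0.82 and 0.54) and ZFAND5 (-0.58 and 0.65), all called. Apart from ADRM1 and UBA1, these genes were picked after their values were seen. These 2 comparisons share libraries, and directly miR-182-iso against miR-27a had 8 of the 39 probes called higher, 20.5% against the 19.9% of all probes, and 7 lower, 17.9% against 18.2%, so both counts were near the share of the table.

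With miR-23b, UBQLN4 (0.70) was the 1 probe called higher, 2.56% against 5.91%, and 1 of the 3 probes of UBQLN1 (-0.60) the 1 called lower, 2.56% against 3.00%. Both are shuttle factors, and the other UBQLN1 probes had differences of -0.31 and -0.18 that were not called. With miR-17-5p 4 were called higher (10.3% against 5.34%), the largest UBA1 (1.11), the ubiquitin gene UBB (1 of 2 probes, 0.78) and NFE2L2 (0.78), and with miR-17-5p-iso 3 were called higher (7.69% against 5.11%), 2 of the 3 UBQLN1 probes (1.05 and 0.62) and 1 of the 2 UBB probes (0.70). The remaining UBQLN1 probe had a difference of 0.38 and was not called (adjusted p = 0.104).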

How the data were processed

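The 13 arrays were processed by the authors with lumi 2.2.1 (background adjustment, variance-stabilizing transformation, robust spline normalization), who kept probes detected in all mock controls. The deposited values, as the authors made them, are on a variance-stabilized scale that is near log2 at high signal and compressed at low signal, and were used unchanged. A table of non-normalized signals, in which 26 columns match no sample, was not used, so a fresh normalization was not made. Of 12007 probes 10444 had 1 symbol, 1 had several and 1562 had none, and 10442 matched the RefSeq gene table (GRCh38.p14). It changed no member's symbol.

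Groups came from the labels. Tests were two-sided moderated tests of limma 3.58.1 in R 4.3.3, in 1 model of 5 group means over all libraries, checked on simulated data, with Benjamini-Hochberg adjustment over all probes. The plan had assumed non-normalized signals, and the same tests were run on the deposited values. No source used here says whether replicates came from separate cultures, so p-values measure the spread between these libraries, which may be technical. No 2 libraries held identical values. The members, the lists and the direct comparison of miR-182-iso with miR-27a were chosen with earlier results of these data known. Values in each library are given for up to 6 called probes with the largest difference in each comparison with unrelated duplexes. They are also given for up to 2 in each direct comparison and for the brightest uncalled probe. By rule, up to 3 of the largest called probes of the pathway list are named in each comparison. Further genes of that list were named with miR-182-iso and miR-27a after their values were seen. Figures were made with Python 3.11.15 and matplotlib 3.10.9. The alternatives tried are given in the closing section.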

Additional observations from a re-analysis of the deposited data

How the results depend on the processing

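Counts below are of the 51 proteasome probes at an adjusted p under 0.05 (limma) unless said. For most settings the share of all probes was not taken. A count alone then does not show whether the proteasome probes changed more than the table did. Without both miR-182-iso libraries, miR-27a had 1 called higher and 4 lower (median -0.12, with PSMB3 turned to 0.10) and miR-23b 0 higher and 3 lower (median -0.19). In the same fit miR-17-5p had 10 higher and 2 lower (median 0.33) and miR-17-5p-iso 5 higher and 0 lower. There, 11 probes differed between any of the remaining pull-downs. At an adjusted p under 0.01, miR-182-iso had 9 higher and 0 lower, miR-27a 1 higher and 6 lower, miR-23b 0 higher and 1 lower, miR-17-5p 2 higher and 0 lower, miR-182-iso against miR-27a 9 higher and 1 lower, and 11 differed between any. With all other pull-downs as the comparator, miR-17-5p had 1 higher and 0 lower, and the miR-182-iso median was 0.44. Among bright probes alone, miR-27a had 1 higher, miR-17-5p 1 lower and miR-182-iso against miR-27a 0 lower. With an intensity trend and robust spread, miR-182-iso had 2 lower and miR-182-iso against miR-27a 1 lower. Quantile normalization and one-sided tests each gave 1 lower for miR-17-5p. With 1 probe per gene, chosen after seeing the data, miR-182-iso had 0 lower and a median of 0.35, miR-27a 1 higher, and miR-182-iso against miR-27a 1 lower and a median of 0.43. Where a count changed with fewer probes or libraries, less was tested, and the cause of the other changes was not tested.

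Deviations of same-numbered libraries correlated at -0.33 to 0.63 (median 0.14, 23 pairs), and those of other pairs at -0.60 to 0.52 (median -0.08, 44 pairs). The ranges overlapped, with the higher median for the same number, and whether same-numbered libraries were handled together was not tested. With the replicate number as a block, miR-182-iso had 3 lower and miR-17-5p 3 higher, and of the 29 named values 27 kept their call and 2 lost it (PSMG1 on ILMN_1779264, 1.15, and PSMG2, 0.59, with miR-17-5p).

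Leaving out each library in turn gave, as higher and then lower, 8 to 18 and 0 to 3 for miR-182-iso, 1 to 3 and 6 to 14 for miR-27a, 0 to 2 and 0 to 8 for miR-23b, 1 to 7 and 0 to 2 for miR-17-5p, 2 to 4 and 0 to 2 for miR-17-5p-iso, 9 to 23 and 1 to 3 for miR-182-iso against miR-27a, and 0 to 0 and 0 to 1 for miR-17-5p against its isomiR. Between 13 and 23 probes differed between any pull-downs. Medians ran from 0.44 to 0.58 for miR-182-iso, -0.45 to -0.17 for miR-27a, -0.43 to -0.32 for miR-23b, 0.04 to 0.14 for miR-17-5p, -0.01 to 0.20 for miR-17-5p-iso, 0.37 to 0.72 for miR-182-iso against miR-27a and -0.080 to 0.21 for miR-17-5p against its isomiR. A lone library left in miR-182-iso or miR-23b was assumed to vary like the others. Of the 29 named values, 11 kept direction and call under every alternative, 17 lost the call at least once and 1 turned. Dim probes, PSMC4 above all, have only a narrow range above background.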
